A study of Sus scrofa with 4 samples.

Results

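The Hippo pathway is represented here by 10 genes: the coactivators YAP1 and WWTR1, the DNA-binding partners TEAD1 to TEAD4, the kinases LATS1 and LATS2, and the angiomotins AMOT and AMOTL2. They were chosen by name, as the rows of the deposited expression table whose symbol equals one of these, and all 10 were found among its 35248 rows. The table covers 4 RNA-seq libraries of porcine parthenogenetic embryos, which develop from electrically activated oocytes without sperm, collected at the 4-cell stage after 48 h in PZM-3 medium. In the 2 Bobcat339 libraries the medium held 50 µM Bobcat339, a small molecule used against the TET dioxygenases, enzymes that oxidise 5-methylcytosine. The 2 control libraries came from embryos given DMSO. Both groups were parthenogenetic and were exposed to cytochalasin B after activation, and the sources used here do not say how many embryos went into a library.

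In the Hippo pathway the LATS kinases phosphorylate YAP1 and its paralogue WWTR1 (also called TAZ), which keeps them out of the nucleus. Without that phosphorylation they enter the nucleus and bind TEAD factors on DNA, because they cannot bind DNA themselves. Angiomotins are scaffold proteins that hold YAP at cell junctions and help to activate LATS. In the mouse embryo this switch is known for separating trophectoderm, where YAP and TEAD4 act in outer cells, from the inner cell mass, where angiomotin and LATS keep YAP in the cytoplasm. This happens after the stage profiled here, and RNA levels do not report phosphorylation or localisation.

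The libraries held 13568525 to 14681221 counts, so that a floor of 3 counts, the one-sided 95% limit for a count of 0, corresponds to 0.204 to 0.221 CPM (counts scaled to library size; counting error only). Oocyte and embryo markers were present at 11770 to 13800 CPM in sum over 9 rows, led by BMP15 and WEE2. The sum over 17 cumulus and granulosa cell rows was 124 and 173 CPM in Bobcat339 embryos and 134 and 148 CPM in controls. Of these 17 rows, 10 had enough counts to be tested. AMH had 0 counts in all 4 libraries and the FSH receptor gene FSHR 0 in 3 of them. The list does not show that RNA of such cells was absent. The sum over 7 blood and immune cell rows was 13.8 to 15.9 CPM, of which HBB was a small part at 0.0681 to 0.219 CPM. Of these 7 rows, 5 had enough counts to be tested, so this list does not show that RNA of such cells was absent either. The log2 CPM of the control pair correlated at 0.97 across genes and that of the Bobcat339 pair at 0.986, and 11.5% of tested rows differed more than 2-fold within the control pair against 4.80% within the Bobcat339 pair. Nothing in the labels says that the replicates were separate cultures, so each p-value reflects the spread between these libraries, which may be technical.

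None of the 10 Hippo members passed the test of Bobcat339 against control embryos. All 10 had enough counts to be tested, each had an adjusted p of 0.999 in edgeR's quasi-likelihood test, and 0 of 10 passed, where 0% of the 18481 rows tested passed. At an unadjusted p under 0.05 there were 0 members, against 740 rows or 4.00% of the table. DESeq2 called 5 rows (0.0167%), limma-voom 0 and edgeR with the replicate number as a block 44 (0.238%), in each case with 0 members. The log2 fold changes (Bobcat339 over control) ran from −0.48 for TEAD2 to 0.61 for AMOTL2, with 6 above 0, 4 below 0 and a median of 0.08; over all tested rows the median was −0.02 and 47.1% were above 0. Both Bobcat339 libraries lay on the same side of both controls for 2 members, TEAD3 higher and TEAD2 lower, where 29.3% of tested rows did so. In libraries of whole embryos, fewer cells with a transcript and less of it per cell cannot be told apart.

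**Figure D1:**
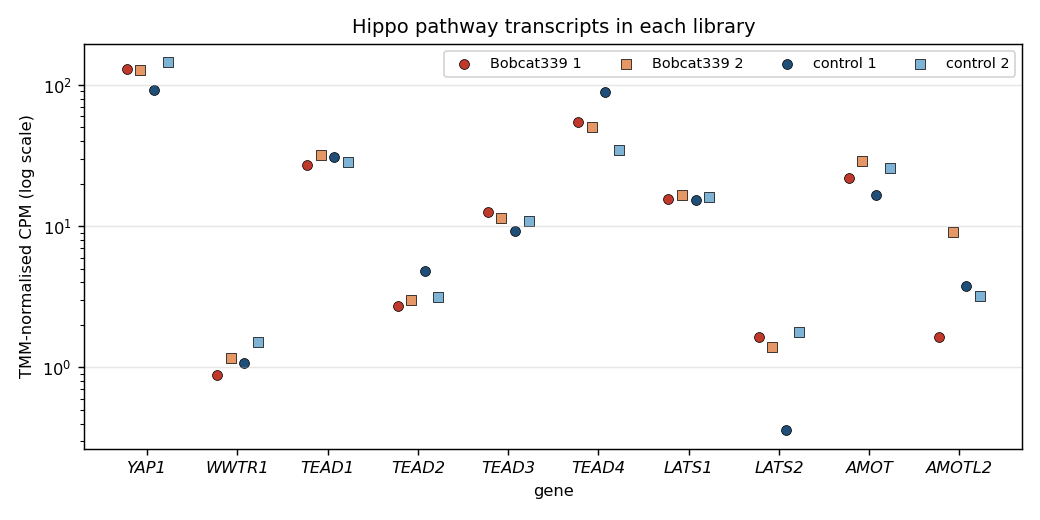
TMM-normalised CPM (vertical axis, log scale) of the 10 Hippo members in each library, Bobcat339 1 and 2 left of control 1 and 2; each point is 1 library. YAP1 is highest in all 4 libraries, control 1 stands apart for YAP1, TEAD4 and LATS2, and the Bobcat339 libraries lie apart for AMOTL2.

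**Figure D2:**
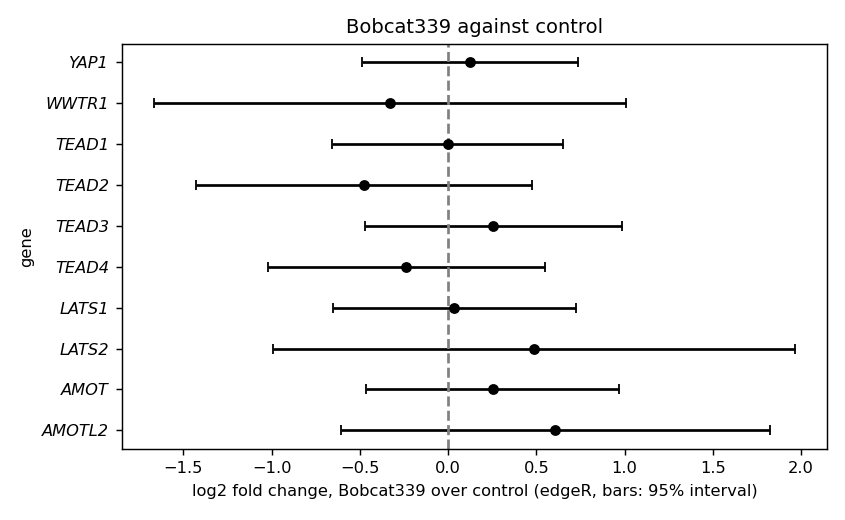
Log2 fold change of Bobcat339 over control for each member (point) with its 95% interval (bar) from edgeR. Every interval includes 0; the narrowest is that of YAP1 (−0.49 to 0.73) and the widest that of LATS2 (−0.99 to 1.97).

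Among the coactivators YAP1 far exceeded WWTR1. YAP1 (ENSSSCG00000031429, chromosome 9: 32811231 to 32925606, plus strand) had 1910 and 1752 counts in the Bobcat339 libraries and 1284 and 2019 in the controls, which is 130.1 and 128 CPM in Bobcat339 embryos and 92.0 and 145 CPM in control embryos. The Bobcat339 libraries were nearly equal and lay between the controls, so the groups overlapped. YAP1 averaged 129 ± 1.75 CPM over the treated and 118 ± 37.1 CPM over the control libraries (SD, n = 2 each), and the log2 fold change was 0.12 (SE 0.29, 95% interval −0.49 to 0.73; edgeR adjusted p = 0.999). It turned to −0.17 without control 1 and was 0.52 without control 2; in such fits the lone control library takes its spread from the treated pair. WWTR1 (ENSSSCG00000011704, chromosome 13: 89746016 to 89889187, minus strand) had 13 and 16 counts in Bobcat339 and 15 and 21 in control embryos, or 0.886 and 1.17 CPM in Bobcat339 and 1.07 and 1.50 CPM in control embryos. The groups overlapped, and the log2 fold change was −0.33 (SE 0.63, 95% interval −1.67 to 1.01). The deposited gene model of WWTR1 is 1164 bases long and ends 3036 bases before the 3′ end of the RefSeq gene on Sscrofa11.1; how far this lowers its count was not tested.

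Levels of different genes were compared on the deposited FPKM, which divides counts by gene length and library size. YAP1 stood at 23.9 and 23.7 FPKM in the Bobcat339 libraries and 16.4 and 26.8 FPKM in the controls, and WWTR1 at 0.761 and 1.01 FPKM in the Bobcat339 libraries and 0.895 and 1.30 FPKM in the controls. YAP1 thus made up 96.9% and 95.9% of the FPKM of the pair in Bobcat339 embryos and 94.8% and 95.4% in control embryos, so its predominance was alike in all 4 libraries.

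The TEAD factors, which share a DNA-binding TEA domain and recruit the coactivators to their targets, were all detected, and TEAD4 varied most between the controls. TEAD4 (ENSSSCG00000000736, chromosome 5: 67124726 to 67194381, minus strand), the member required for trophectoderm formation in the mouse, had 809 and 689 counts in the Bobcat339 libraries and 1247 and 484 in the controls. These were 55.1 and 50.2 CPM in Bobcat339 embryos and 89.4 and 34.6 CPM in control embryos, so that both treated libraries fell between controls 2.58-fold apart. That gap between the controls exceeded the gap at 97.1% of tested rows. The deposited gene model of TEAD4 reaches past both ends of the RefSeq gene on Sscrofa11.1 (67130392 to 67167579). How far this alters its counts, FPKM and share of the family was not tested. The log2 fold change was −0.24 (SE 0.37, 95% interval −1.02 to 0.55; edgeR adjusted p = 0.999). It was 0.60 without control 1 (adjusted p = 0.201) and −0.73 without control 2 (adjusted p = 0.0942).

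TEAD1 (ENSSSCG00000013399, chromosome 2: 46400066 to 46670472, minus strand) had the smallest gap of the family between the controls (0.10 in log2). Between the Bobcat339 libraries its gap was the largest of the family (0.22 in log2). It had 27.3 and 32.0 CPM in Bobcat339 embryos and 30.7 and 28.6 CPM in control embryos, overlapping ranges, and its log2 fold change was −0.0021 (SE 0.31, 95% interval −0.66 to 0.65). Its deposited gene model ends 3576 bases before the 3′ end of the RefSeq gene, and the effect on its count was not tested. TEAD3 (ENSSSCG00000001544, chromosome 7: 31337890 to 31351452, minus strand) had 12.6 and 11.4 CPM in Bobcat339 embryos and 9.24 and 10.9 CPM in control embryos. Both treated libraries lay above both controls, as at 13.3% of tested rows, and the log2 fold change was 0.26 (SE 0.34, 95% interval −0.47 to 0.98; edgeR adjusted p = 0.999). TEAD2 (ENSSSCG00000025568, chromosome 6: 54448188 to 54462285, minus strand), a factor already expressed in the early mouse embryo, had 40 and 41 counts in Bobcat339 embryos and 67 and 44 in control embryos, or 2.72 and 2.99 CPM in Bobcat339 and 4.80 and 3.15 CPM in control embryos. Both treated libraries lay below both controls, as at 16.0% of tested rows, although control 2 was close to them, and the log2 fold change was −0.48 (SE 0.45, 95% interval −1.43 to 0.48; edgeR adjusted p = 0.999). TEAD2 shares 4027 bases with CD37 on the opposite strand, a row with 776 and 634 counts in Bobcat339 and 817 and 614 in control embryos. Smart-seq2 libraries do not mark the strand, so the shared stretch cannot be assigned to either gene and the TEAD2 level is uncertain.

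The make-up of the TEAD family differed more between the controls than between the Bobcat339 libraries. TEAD4 took 37.2% and 34.9% of the summed TEAD FPKM in the Bobcat339 libraries, against 51.0% in control 1 and 28.3% in control 2. TEAD3 took 39.0% and 36.5% in Bobcat339 embryos, against 24.2% and 40.8% in control embryos. The leading TEAD by FPKM was therefore TEAD3 in both Bobcat339 libraries and in control 2, and TEAD4 in control 1. In Bobcat339 embryos this lead was small (9.66 against 9.21 and 8.87 against 8.49 FPKM) and within the counting error of TEAD3. Its 185 and 157 counts there had Poisson intervals of 159 to 214 and 133 to 184. The FPKM rest on lengths of 1305 bases for TEAD3 and 5982 for TEAD4, and how well these match the transcripts was not tested. By CPM, which is not divided by length, TEAD4 exceeded TEAD3 in all 4 libraries. TEAD1 held 20.0% and 24.1% in Bobcat339 and 19.0% and 25.4% in control embryos, and TEAD2 between 3.93% and 5.85% in the 4 libraries. The sum over the family was 24.8 and 24.3 FPKM in Bobcat339 embryos, within the control values of 28.4 and 20.6 FPKM. The YAP1 level relative to TEAD4 was 2.59 and 2.79 in Bobcat339 embryos and 1.13 and 4.58 in control embryos, a ratio of FPKM values in which control 1, with the lowest YAP1 and the highest TEAD4, and control 2, with the reverse, lay at the ends.

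**Figure D3:**
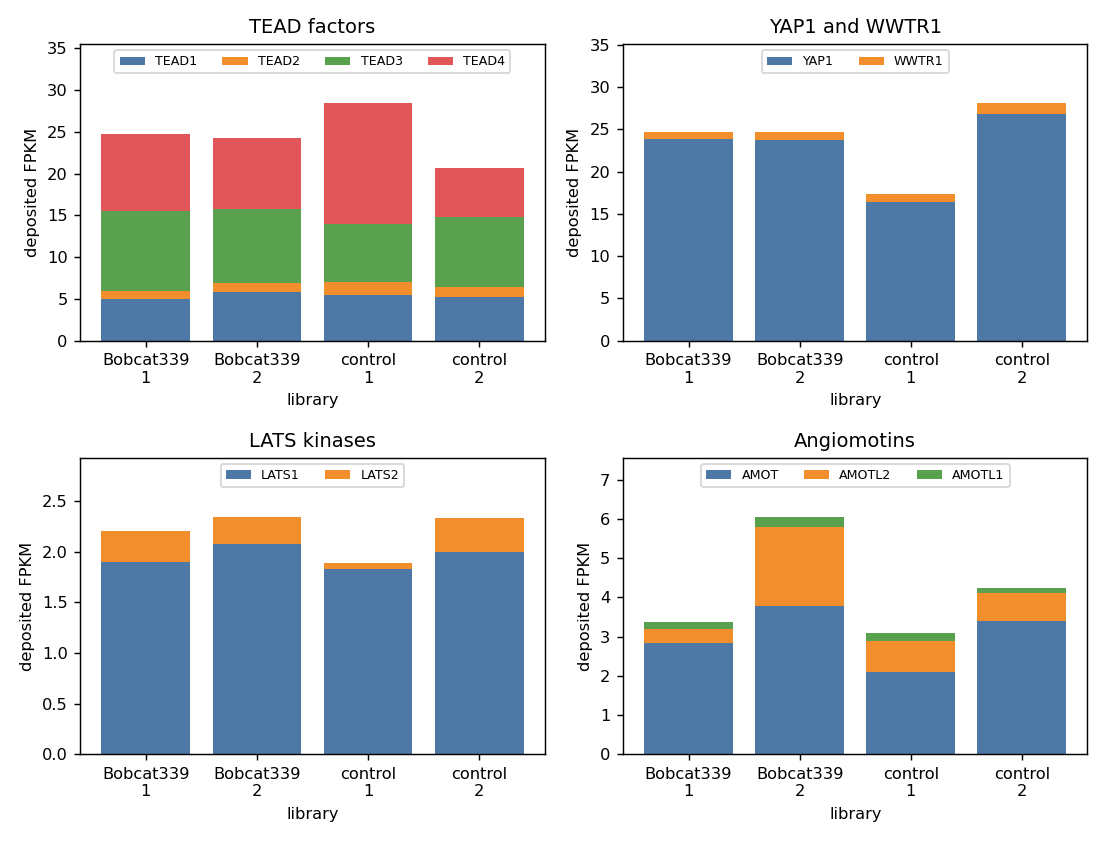
Deposited FPKM (vertical axes, from 0) of the TEAD factors, the coactivators, the LATS kinases and the angiomotins, stacked by gene in each library, Bobcat339 libraries at the left. The TEAD4 part is largest in control 1 (14.5 FPKM) and smallest in control 2 (5.84 FPKM), the LATS2 part is smallest in control 1, and the AMOTL2 part is largest in Bobcat339 2 (2.01 FPKM).

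Of the kinases that phosphorylate YAP1, LATS1 was even across the libraries and LATS2 had few counts. LATS1 (ENSSSCG00000004106, chromosome 1: 16274843 to 16321581, plus strand) had 227 and 230 counts in Bobcat339 embryos and 214 and 225 in control embryos. These were 15.5 and 16.8 CPM in Bobcat339 and 15.3 and 16.1 CPM in control embryos, with overlapping groups, a log2 fold change of 0.04 (SE 0.33) and a 95% interval of −0.65 to 0.72. LATS2 (ENSSSCG00000036326, chromosome 11: 1225526 to 1266380, minus strand) had 24 and 19 counts in the Bobcat339 libraries and 5 and 25 in the controls. Control 1 alone was low: the exact 95% Poisson interval of its 5 counts was 1.62 to 11.7, and that of the 25 counts of control 2 was 16.2 to 36.9 (counting error only). The other 3 libraries lay between 1.38 and 1.79 CPM, control 1 at 0.358 CPM. The log2 fold change of LATS2 was 0.49 (SE 0.70, 95% interval −0.99 to 1.97; edgeR adjusted p = 0.999), −0.24 without control 1 and 2.08 without control 2 (adjusted p = 0.255). By FPKM, LATS1 made up 86.1% and 88.8% of the pair in Bobcat339 embryos and 96.6% and 85.5% in control embryos.

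The angiomotins differed in which library stood out. AMOT (ENSSSCG00000012591, chromosome X: 92581998 to 92647857, minus strand), the member that links LATS to junctions in inner cells of the mouse embryo, had 321 and 396 counts in Bobcat339 embryos and 232 and 362 in control embryos, or 21.9 and 28.8 CPM in Bobcat339 and 16.6 and 25.9 CPM in control embryos. The groups overlapped, and the log2 fold change was 0.25 (SE 0.34, 95% interval −0.46 to 0.97; edgeR adjusted p = 0.999), −0.03 without control 1 and 0.63 without control 2. AMOTL2 (ENSSSCG00000011643, chromosome 13: 75490959 to 75509420, minus strand), an angiomotin that is also a YAP target in human cells, had 24 and 125 counts in the Bobcat339 libraries and 53 and 45 in the controls.

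Both controls of AMOTL2, at 3.80 and 3.22 CPM, lay between Bobcat339 1 at 1.63 CPM and Bobcat339 2 at 9.11 CPM. The 95% Poisson intervals of the treated counts, 15.4 to 35.7 and 104 to 149, did not overlap, and the gap of 5.57-fold between the treated libraries exceeded that at 99.9% of tested rows. The log2 fold change was 0.61 (SE 0.58, 95% interval −0.61 to 1.82; edgeR adjusted p = 0.999). It rested on Bobcat339 2, being −1.05 without Bobcat339 2 and 1.37 without Bobcat339 1. AMOTL1, the other angiomotin, had 1.91 and 2.77 CPM in Bobcat339 embryos and 2.29 and 1.43 CPM in control embryos.

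**Figure D4:**
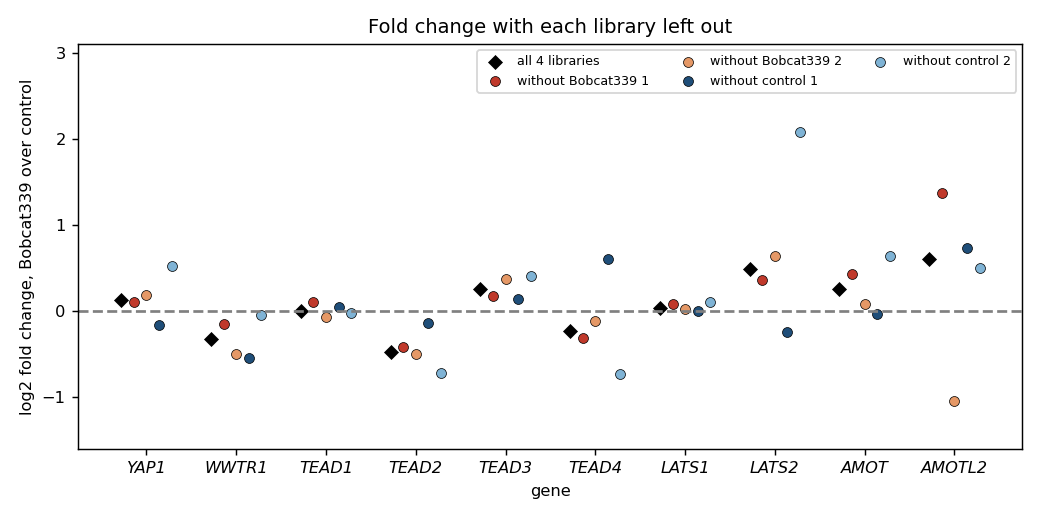
Log2 fold change of Bobcat339 over control (vertical axis) of each member in all 4 libraries (diamonds) and with each library left out in turn (circles coloured by the library left out). Leaving out control 1 or control 2 moves TEAD4 to 0.60 and −0.73 and LATS2 to −0.24 and 2.08, and leaving out a Bobcat339 library moves AMOTL2 to 1.37 and −1.05.

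Ordered by mean FPKM over the 4 libraries, the members ran YAP1 (22.7), TEAD4 (9.51), TEAD3 (8.45), TEAD1 (5.36), AMOT (3.03), LATS1 (1.95), TEAD2 (1.21), WWTR1 (0.993), AMOTL2 (0.969) and LATS2 (0.242). The ranges over libraries overlapped between TEAD4 and TEAD3, between TEAD2 and WWTR1 and between WWTR1 and AMOTL2, so these neighbours did not differ beyond their spread. The ranges of the other neighbours did not overlap, but some members further apart in the order did. TEAD4 (from 5.84 FPKM) overlapped TEAD1 (up to 5.86 FPKM), and AMOTL2 (up to 2.01 FPKM) overlapped LATS1 (from 1.82 FPKM). The deposited length is not the length behind the FPKM for 7 of the members. For YAP1 the table gives 10653 bases, while counts and FPKM imply 5443, and with counts divided by the deposited length TEAD3 stood above TEAD4, AMOT above TEAD1, and TEAD2 below WWTR1 and AMOTL2.

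The rows closest to YAP1 over the 4 libraries, by the root mean square distance of centred log2(CPM + 1), were NREP (0.0141), FAM227B (0.0148) and TULP4 (0.0151). Of 8936 named rows with at least 5 CPM, 536 lay within 0.1 of YAP1, so a profile of this shape was frequent. The rows closest to TEAD4 were TAB1 (0.0283), NDUFAF5 (0.0476) and IGHMBP2 (0.0485), with 51 within 0.1. TAB1 had 6.88 and 6.12 CPM in Bobcat339 and 11.8 and 4.22 CPM in control embryos, high in control 1 and low in control 2 as TEAD4 was. It was picked for this likeness, so the match is no separate observation.

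Upstream of LATS, 0 of 23 tested kinases, adaptors and activators passed, where 0% of the 18481 rows tested passed. Of the 23, 9 were above 0 and 14 below 0, with a median log2 fold change of −0.10, against −0.02 over all tested rows. Without Bobcat339 2 or without control 2 the median lay above 0. Both treated libraries lay below both controls at 3 of the 23 (STK3, SAV1 and WWC2) and above them at 3 (FRMD6, MAP4K3 and FAT4), which is 13.0% in each direction, near the 16.0% and 13.3% of all tested rows that did so; WWC2, MAP4K3 and FAT4 are named after their values were seen. STK3 and STK4 encode the Hippo kinases that activate LATS with the scaffold SAV1. STK3 had 13.4 and 10.6 CPM in Bobcat339 embryos and 15.3 and 17.3 CPM in control embryos (log2 fold change −0.44, SE 0.34). SAV1 had 5.65 and 6.77 CPM in Bobcat339 embryos and 8.31 and 10.7 CPM in control embryos (−0.61, SE 0.37). STK4, at 98.0 and 100.5 CPM in Bobcat339 and 77.6 and 99.8 CPM in control embryos, was the more abundant kinase by FPKM as well (16.1 against 4.41 over the 4 libraries), and its groups overlapped (log2 fold change 0.16, SE 0.28).

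NF2 (merlin), which brings LATS to the membrane, had 54.2 and 46.0 CPM in Bobcat339 embryos and 73.4 and 50.0 CPM in control embryos. MOB1A, the coactivator of LATS, had 72.3 and 48.2 CPM in Bobcat339 and 92.9 and 46.0 CPM in control embryos; MOB1B was not matched to a row of its own. The members of this list with the highest CPM were FRMD6, a membrane adaptor (553 and 532 CPM in Bobcat339, 356 and 480.2 CPM in control embryos; log2 fold change 0.38, SE 0.25), and TAOK3, a kinase upstream of STK3 and STK4 (149 and 161 CPM in Bobcat339, 141 and 156 CPM in control embryos). At an unadjusted p under 0.05 there was 1 row, RASSF1, a scaffold that binds STK3 and STK4, named after its values were seen. It had 44.7 and 28.5 CPM in Bobcat339 embryos and 103.6 and 42.8 CPM in control embryos, with overlapping groups and an edgeR adjusted p of 0.999.

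Among antagonists of the kinases, mostly the phosphatase complex STRIPAK, 0 of 14 tested rows passed, against 0% of all tested rows. Of the 14, 7 were above 0 and 7 below 0, with a median of 0.00019. The catalytic subunit PPP2CA had 681 and 671 CPM in Bobcat339 embryos and 791 and 486 CPM in control embryos. The scaffold subunit PPP2R1A had 492 and 487 CPM in Bobcat339 and 573 and 469.6 CPM in control embryos. Both overlapped between the groups.

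Of 18 tested TEAD cofactors and YAP/TAZ partners or turnover factors, 0 passed, against 0% of all tested rows, with 11 above 0 and a median of 0.05. VGLL4, which competes with YAP for TEAD, had 4.02 and 4.59 CPM in Bobcat339 embryos and 1.43 and 2.79 CPM in control embryos. Both treated libraries lay above both controls, the log2 fold change was 1.02 (SE 0.48), and the edgeR adjusted p was 0.999. It was 0.62 without control 1 and 1.61 without control 2 (adjusted p = 0.0777), and 13.3% of all tested rows had both treated libraries above both controls. The most abundant were adaptors that retain phosphorylated YAP in the cytoplasm: YWHAQ with 555 and 546 CPM in Bobcat339 and 568 and 464 CPM in control embryos, YWHAB with 502 and 583 CPM in Bobcat339 and 393 and 522 CPM in control embryos, and YWHAE with 444 and 442 CPM in Bobcat339 and 490.3 and 373 CPM in control embryos. All 3 overlapped between the groups. Cell polarity genes, which place the angiomotins in the mouse embryo, had 0 of 17 passing, against 0% of all tested rows, and a median of −0.03. PARD3B had 397 and 394 CPM in Bobcat339 and 361 and 389 CPM in control embryos, RHOA 357 and 310.3 CPM in Bobcat339 and 369 and 240.2 CPM in control embryos, and PARD6B 221 and 222 CPM in Bobcat339 and 238 and 148 CPM in control embryos.

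Downstream, 0 of 18 tested genes of a YAP/TAZ-TEAD target signature from human tumour cells passed, against 0% of all tested rows. Of the 18, 8 were above 0 and 10 below 0, with a median of −0.04. CCN2, a matricellular protein and a widely used YAP target, had 87.9 and 405 CPM in Bobcat339 embryos and 614 and 214 CPM in control embryos. The libraries of both groups were far apart and the groups overlapped (log2 fold change −0.75, SE 0.51, edgeR adjusted p = 0.999). The log2 fold change of CCN2 was −1.31 without control 2 and 0.20 without control 1. It was −0.04 without Bobcat339 1 and −2.18 without Bobcat339 2, so it moved with each library left out. CCN1, its relative (CYR61 in the table), had 4.84 and 3.93 CPM in Bobcat339 embryos and 6.09 and 6.80 CPM in control embryos (−0.55, SE 0.39). ANKRD1 had 0.886 and 0.656 CPM in Bobcat339 and 1.43 and 0.644 CPM in control embryos. ASAP1 (683 and 630.1 CPM in Bobcat339, 530.0 and 770.1 CPM in control embryos) and the tissue factor gene F3 (206 and 237 CPM in Bobcat339, 193 and 253 CPM in control embryos) were the other abundant members, and in both the treated libraries lay between the controls. AMOTL2 and CCN2 differed in their order: AMOTL2 was highest in Bobcat339 2, CCN2 in control 1, and both were lowest in Bobcat339 1.

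Of 8 tested lineage genes placed downstream of YAP and TEAD4 in the mouse embryo, 0 passed, against 0% of all tested rows. Of the 8, 2 were above 0 and 6 below 0, with a median of −0.08. The trophectoderm factor CDX2 had 3 and 4 counts in Bobcat339 embryos and 0 and 1 in control embryos, too few to be tested. GATA3 had 6.06 and 9.54 CPM in Bobcat339 and 6.52 and 7.09 CPM in control embryos, and TFAP2C 634 and 539.8 CPM in Bobcat339 and 777 and 532 CPM in control embryos; both overlapped between the groups. SOX2, which YAP and TEAD4 hold down in outer cells of the mouse embryo, had 85.4 and 77.4 CPM in Bobcat339 embryos and 169 and 134 CPM in control embryos. Both treated libraries lay below both controls, as at 16.0% of tested rows. The log2 fold change was −0.90 (SE 0.28), and the edgeR adjusted p of 0.931 did not pass. SOX2 passed without control 1 (−0.72, adjusted p = 0.0249) and without control 2 (−1.02, adjusted p = 0.00812), fits in which 2.92% and 2.47% of all tested rows passed. It did not pass without Bobcat339 1 (−0.97) or Bobcat339 2 (−0.78), fits in which 0 rows passed, nor with the replicate number as a block (adjusted p = 0.267).

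**Figure D5:**
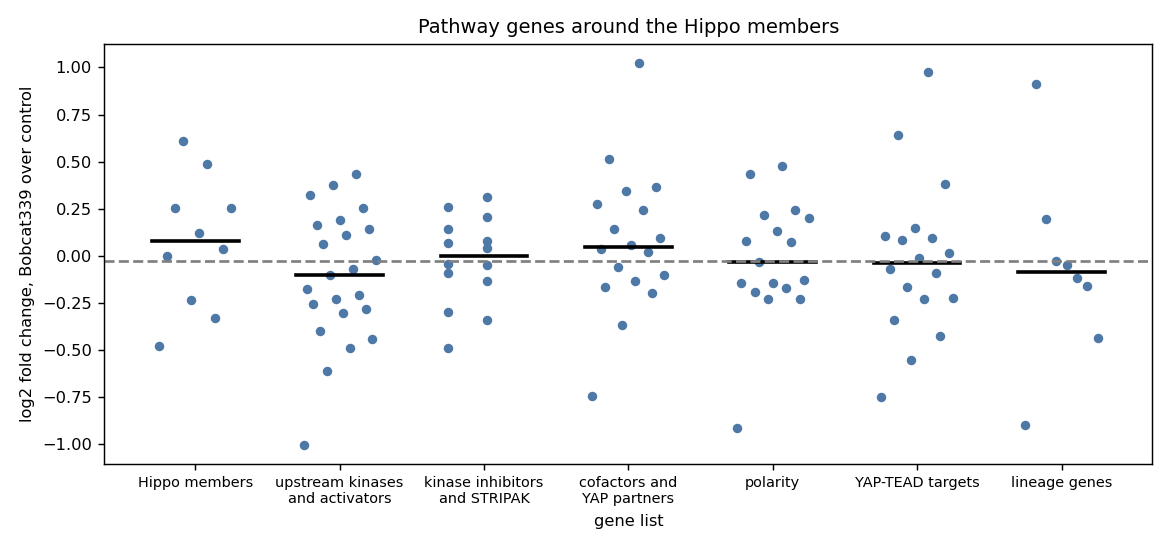
Log2 fold change of Bobcat339 over control (vertical axis) of every tested gene of each list (points), with the list median (black line) and the median of all tested rows (dashed line, −0.02). The medians lie between −0.10 for the upstream kinases and 0.08 for the Hippo members, and 0 genes of any list passed the test over all rows.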

How the data were processed

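The authors deposited read counts per gene, whole numbers per the file headers, for each of the 4 libraries, and FPKM values, which normalise those counts by gene length and library total. The deposited gene length equals the length implied by count, total and FPKM (within 1%) at 62.0% of rows with counts; for 7 of the Hippo members it does not, so levels of different genes were read from the FPKM. Per the labels, total RNA came from a TRIzol extraction and the libraries from smart-seq2, which does not mark the strand. Tools in the submitters' processing notes are HISAT2 2.0.5, HTSeq, Trimmomatic and DESeq2 1.16.1, and the build there is Sscrofa10.2; 95.7% of 18208 comparable rows, and all 10 members, overlap their RefSeq gene on Sscrofa11.1, so the deposited coordinates are given as Sscrofa11.1.

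Library totals were 14681221 and 13568525 counts for Bobcat339 and 14390560 and 13852262 for control. Groups follow the sample titles. Counts were tested with edgeR 4.0.16 under R 4.3.3, with TMM scaling, rows kept by filterByExpr (minimum count 10), glmQLFit and glmQLFTest, with Benjamini-Hochberg adjustment over the 18481 rows tested and a threshold of 0.05. The F statistic and log2 fold change of a row gave its standard error and 95% interval; CPM are TMM-normalised. The script was tested on simulated counts with changes placed in rows above a mean of 5 CPM. It called 14.9% of the 2-fold and 89.6% of the 4-fold changes. Replicates of neither group agree within sampling noise (chi-square per gene 12.52 for Bobcat339 and 48.3 for control). Gaps between replicates used CPM + 0.5.

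The members and gene lists were chosen with earlier results of these data known. Named were all members, the 3 list genes with the highest mean CPM in each pathway list, any that passed, and a fixed set of 14 core pathway genes, of which MOB1B has no row of its own. A gene that this rule names is not reported here. PTPN14 and AJUBA stand in 2 lists each. Alternatives were DESeq2 1.42.0, limma-voom (limma 3.58.1), library totals alone, DESeq2 size factors, all rows with a count, rows with at least 1 CPM in 2 libraries, the replicate number as a block and each library left out. No sequence of these genes was used here.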

Additional observations from a re-analysis of the deposited data

How the results depend on the processing

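With 2 libraries in each group the intervals are wide, and not only for members with few counts. They ran from −0.49 to 0.73 for YAP1 and from −1.02 to 0.55 for TEAD4. A p-value that misses the threshold does not show that levels were alike. The count of Hippo members called was 0 under all 11 alternatives. The count of all rows called was 0 by edgeR, 5 by DESeq2, 44 with the replicate number as a block, and 0 to 586 with each library left out: 0 without either Bobcat339 library, 586 without control 1 and 494 without control 2, the cause of which was not tested. The replicate block called 0 members. Same-numbered libraries deviated together at a correlation of 0.211 across genes, and as the labels tie them by number only, they were not taken as pairs. Of 36 named genes, limma-voom and the block reversed the sign of 0. The signs of TEAD1 and F3, both near 0, reversed with DESeq2 (0.021 and 0.012), DESeq2 size factors (0.017 and 0.0091), no scaling (0.024 and 0.010) and no filter (0.023 and 0.013). Without control 1 the sign reversed for 6 members. With each library left out, log2 fold changes ranged from −0.17 to 0.52 for YAP1, −0.073 to 0.10 for TEAD1, −0.73 to 0.60 for TEAD4, −0.00033 to 0.10 for LATS1, −0.24 to 2.08 for LATS2, −0.033 to 0.63 for AMOT and −1.05 to 1.37 for AMOTL2. The same ranges were −0.0077 to 0.39 for STK4, −0.59 to 0.39 for MOB1A, −0.52 to 0.0021 for NF2, −0.010 to 0.16 for TAOK3, −0.20 to 0.059 for PPP2R1A, −0.20 to 0.47 for PPP2CA, −0.12 to 0.25 for YWHAE, −0.013 to 0.25 for YWHAQ, −0.068 to 0.58 for PARD6B, −0.11 to 0.47 for RHOA, −2.18 to 0.20 for CCN2, −0.85 to 0.26 for ANKRD1, −0.23 to 0.34 for ASAP1, −0.19 to 0.22 for F3, −0.12 to 0.48 for GATA3 and −0.37 to 0.14 for TFAP2C. VGLL4 (0.62 to 1.61), FRMD6 (0.18 to 0.64), STK3 (−0.63 to −0.23), SAV1 (−0.78 to −0.39) and SOX2 (−1.02 to −0.72) kept their sign. WWTR1, TEAD2 and TEAD3 kept their sign without each library, at −0.55 to −0.04, −0.72 to −0.14 and 0.14 to 0.41. The median over the members was 0.08 and ranged from −0.03 to 0.26 with each library left out. The list medians ranged likewise from −0.19 to 0.051 for kinases and activators, −0.0097 to 0.21 for inhibitors, −0.018 to 0.15 for cofactors, 0.020 to 0.16 for polarity genes (−0.03 with all libraries), −0.15 to 0.23 for targets and −0.28 to 0.18 for lineage genes.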

Other observations

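The deposited table carries its own pathway annotation, which assigns 129 rows to Hippo signaling, among them 9 of the 10 members and not AMOTL2. This list was looked at after the values of the members were seen. Of its 105 tested rows, 0 passed, against 0% of all tested rows. The log2 fold change was above 0 at 56 and below 0 at 49, and the median was 0.04, against −0.02 over all tested rows. Both treated libraries lay above both controls at 16 (15.2%) and below them at 10 (9.52%), where 13.3% and 16.0% of all tested rows did so.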
